A study of Mus musculus with 22 samples.

Results

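The Prader-Willi domain of central chromosome 7 was followed through 9 genes, Ipw, Snrpn, Snurf, Ndn, Magel2, Mkrn3, Peg12, Ube3a and Atp10a, chosen by symbol in the deposited expression tables. All 9 were found, in 13 transcript rows, among the 21032 gene symbols listed in any library and the 16271 listed in all of them. RNA was compared between wild-type cells (Lsh+/+, WT) and cells without Lsh (Lsh-/-, KO), with 2 libraries of each genotype. Lsh, the product of the gene Hells, is a chromatin remodeller of the SNF2 family that DNA methylation depends on. The cells were primary embryonic fibroblasts (MEFs) grown from the bodies of C57BL/6 embryos at E13.5 and collected at passage 3 to 4, and the labels name no agent given to either genotype. Since the strain is inbred, the maternal and paternal copies cannot be told apart in these libraries. The 2 samples of a genotype are labelled as biological replicates, but no label says whether they came from separate embryos or whether WT1 and KO1, or WT2 and KO2, belong together, so the p-values measure only the spread between these libraries. The other 18 of the 22 samples (input, RNA polymerase II, H3K27me3 and H3K4me3) are not analysed here.

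The domain is imprinted, meaning that most of its genes are read mainly from the copy inherited from 1 parent, though not each of them in every cell type. A CpG-rich control region at the Snrpn promoter is methylated on the maternal copy, and from the unmethylated paternal copy come Snurf and Snrpn, a long transcript with small nucleolar RNAs and Ipw in its path, and the more distant Ndn, Magel2, Mkrn3 and Peg12. Ube3a, the gene of Angelman syndrome, is read from the maternal copy in neurons, where the long paternal transcript runs antisense to it, and from both copies in most other cells. Much of the domain is best known from brain.

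Values are RPKM, read numbers divided by transcript length in kb and by M (mega) mapped reads, that the authors computed for each RefSeq transcript on mouse build mm9. From the value of a single read in olfactory receptor genes, the libraries held 122.5 to 176.6 M mapped reads. Hells itself stood at 0.865 RPKM in WT1 and 1.06 in WT2 and at 0.430 in KO1 and 0.550 in KO2, lower in both KO libraries. Gapdh, which every cell uses, was near 0 in every library, at 0.160 RPKM in WT1, 0 in WT2, 0.298 in KO1 and 0.179 in KO2. A value at or near 0 in these tables therefore cannot be read as silence. All 12 fibroblast markers, collagens and Vim among them, were present, and their summed level ranged from 3023 to 3286 RPKM over the 4 libraries. For some genes of the list the replicate numbers stood far apart, in either direction. Lum, a matrix proteoglycan gene, was at 0.718 RPKM in WT1 and 1.27 in KO1 against 108 in WT2 and 105 in KO2. Pdgfra, a growth factor receptor gene, was at 0.987 and 2.46 against 23.2 and 23.1 in the same order. S100a4 went the other way, at 277 RPKM in WT1 and 313 in KO1 against 35.6 in WT2 and 45.7 in KO2.

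Ipw, a spliced long noncoding RNA that is named for being imprinted in Prader-Willi syndrome, showed the widest difference of the 9 genes between genotypes. Its row (NR_015351, 7:66874529-66934249, minus strand) stood at 0.0206 RPKM in WT1 and was listed at 0 in WT2, against 3.20 RPKM in KO1 and 0.540 in KO2. Both KO libraries lay above both WT libraries, and KO1 lay well above KO2. On the log2(RPKM + 0.5) scale, on which low genes change less than in RPKM, KO1 exceeded WT1 by 2.83 and KO2 exceeded WT2 by 1.06. Among the 11149 genes tested, the first of these differences ranked 2 and the second 45. Ipw is among these genes only through its KO libraries, which favours a high rank, so the ranks are a description. The 4 values are whole multiples of a read when 1, 144, 0 and 27 reads are taken for WT1, KO1, WT2 and KO2 over a transcript of 367 bases. This is the smallest solution, and any common multiple of it would give the same RPKM. With those counts KO1 stood at 155 times WT1 per mapped read, with a 95% interval from 27.5 to 6180 that covers counting error only and rests on a single WT1 read. No ratio is given against WT2, where the gene is listed at 0.

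The genes were tested with limma on log2(RPKM + 0.5) with genotype as the only term. Ipw differed by 1.94 (SE 0.71, 95% interval 0.03 to 3.86, n = 2 per genotype), with a limma p of 0.0476 before adjustment and an adjusted p of 1.00 over all genes. Ipw therefore did not pass the test, and it entered the test only through the KO libraries, since genes needed 0.5 RPKM in at least 2 libraries. Of the 9 genes 6 were tested and 0 passed an adjusted p of 0.05, beside 0 of 11149 genes in all (0%). An unadjusted limma p under 0.05 was given to 41 of all the genes and to 1 of the 6, Ipw. When transcripts were tested in place of genes, 0 of 13280 passed (0%), and 52 had an unadjusted p under 0.05. A second fit with the replicate number as a further term called 75 genes (0.673%), of which 0 were among the 6. In that fit 1015 of all the genes had an unadjusted limma p under 0.05, and Ipw had 0.0548. The genotype-only fit counts the spread between replicate numbers as error. A gene that did not pass it therefore cannot be called unchanged.

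**Figure D1:**
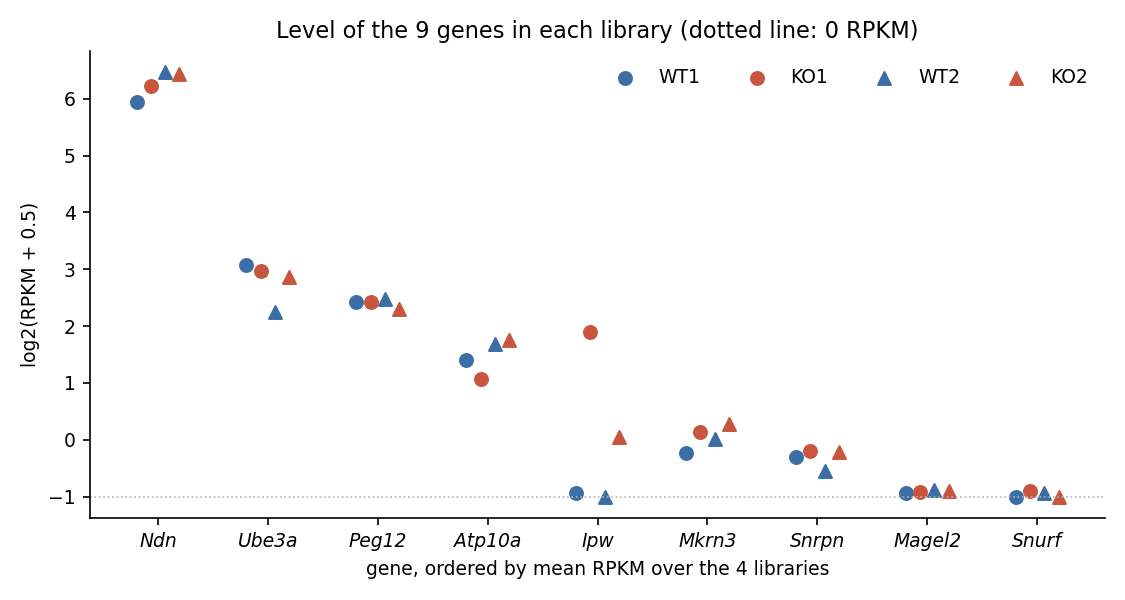
Level of each of the 9 genes in the 4 libraries, as log2(RPKM + 0.5), with genes ordered by mean RPKM; blue marks WT, red marks KO, circles mark replicate 1 and triangles replicate 2. Ndn lies far above the rest, and Ipw is the gene whose KO points (3.20 and 0.540 RPKM) stand clear of WT points at or near the line of 0 RPKM.

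The start of Ipw is shown because it is the gene with the widest difference. The RefSeq window, from 250 bases before to 50 bases after the start, is given for build GRCm38.p6 at chr7:59678829-59679128 on the minus strand, 5′ to 3′, with CpG dinucleotides in capitals.
Ipw: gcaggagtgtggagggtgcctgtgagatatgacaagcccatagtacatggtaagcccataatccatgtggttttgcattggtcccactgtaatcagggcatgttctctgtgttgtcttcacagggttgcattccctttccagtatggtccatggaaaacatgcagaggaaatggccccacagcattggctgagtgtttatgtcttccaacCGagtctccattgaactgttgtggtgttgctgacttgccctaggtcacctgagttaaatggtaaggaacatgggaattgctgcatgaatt
The window holds 1 CpG, and 14.1% of the 32817 RefSeq windows of the same length hold no more than that, while the median window holds 7. Its start lies 450.3 kb from that of Ube3a in GRCm38.p6, close to the 450.1 kb between the starts in mm9, whereas the distance from Ipw to Snurf is 326.3 kb in GRCm38.p6 and 215.8 kb in mm9. Coordinates from the 2 builds are not interchangeable here.

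Snrpn, which encodes the SmN protein of the spliceosome, and Snurf, a small protein encoded on the same message, lie upstream of Ipw on the same strand. Snrpn has 3 rows (7:67127389-67285106 in all), and their sum was 0.306 RPKM in WT1, 0.187 in WT2, 0.368 in KO1 and 0.357 in KO2. Both KO libraries were above both WT libraries, by 1.20 times in replicate 1 and 1.91 times in replicate 2. Snrpn stayed below the 0.5 RPKM needed for the test. With no such filter its difference was 0.21 on the log2 scale (SE 0.18), with a limma adjusted p of 1.00. The spread between the 2 WT libraries was wider than the gap between the higher WT and the lower KO library.

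The rows of Snrpn separate by their start. NM_001082962, which begins 135.1 kb upstream of the Snurf start, held from 87.2% to 100% of the Snrpn sum, at 0.306 RPKM in WT1, 0.163 in WT2, 0.330 in KO1 and 0.357 in KO2. NM_013670, which begins at the Snurf start, held 0.0372 RPKM in KO1 and 0.0197 in WT2 and was practically absent in WT1 (2.42e-07 RPKM) and KO2 (5.03e-08 RPKM). NM_001082961, which begins 92.5 kb upstream, reached at most 0.00418 RPKM. The Snurf row (NM_033174, 7:67127389-67150043) had the same span as NM_013670 and the same value in all 4 libraries, so it is not a separate measurement. Neither row separated the genotypes, since for both the highest and the next value came from 1 library of each. The rows share their 3′ part, so the division of reads among them is an estimate of the authors' program.

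The start windows of Snurf and Ndn are shown for an 8-base word, CGCATGCG, that they have in common and that was picked after the sequences had been read. It is its own reverse complement, so a match on 1 strand is a match on both. The Snurf window, which is also the first Snrpn window, is chr7:60005150-60005449 on the minus strand and the Ndn window is chr7:62348027-62348326 on the plus strand, both in GRCm38.p6, with the word in capitals.
Snurf: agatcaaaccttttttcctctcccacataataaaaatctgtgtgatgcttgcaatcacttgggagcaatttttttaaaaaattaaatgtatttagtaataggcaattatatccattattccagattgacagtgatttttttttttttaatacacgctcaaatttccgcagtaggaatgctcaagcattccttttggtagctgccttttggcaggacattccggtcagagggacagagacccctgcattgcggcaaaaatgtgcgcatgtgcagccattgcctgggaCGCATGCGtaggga
Ndn: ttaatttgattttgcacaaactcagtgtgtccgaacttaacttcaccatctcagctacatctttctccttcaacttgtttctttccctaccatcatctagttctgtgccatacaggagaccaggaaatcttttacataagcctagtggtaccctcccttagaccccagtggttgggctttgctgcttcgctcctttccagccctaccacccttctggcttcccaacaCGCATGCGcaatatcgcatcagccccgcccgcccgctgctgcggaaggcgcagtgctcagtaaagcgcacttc
The word stands in 5 of the 11 distinct windows of the 9 genes, namely the 4 Snrpn windows and that of Ndn. It stands in 611 of all 32817 windows (1.86%). Since the word was picked from these windows, and 3 of the 5 also share a longer run, the 2 shares are no test. The 3 windows of Snrpn that start upstream, 42.8, 135.0 and 445.0 kb from the Snurf start in GRCm38.p6, also share a run of 49 bases that no other window holds. The second of them lies about as far upstream as the row with most of the Snrpn signal.
Snrpn upstream run: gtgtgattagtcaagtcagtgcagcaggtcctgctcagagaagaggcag
These windows hold 4, 3 and 2 CpGs, and the Snurf window holds 7. A match is a description of the letters and says nothing of binding. Whether the word goes with a difference between genotypes was not tested.

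**Figure D2:**
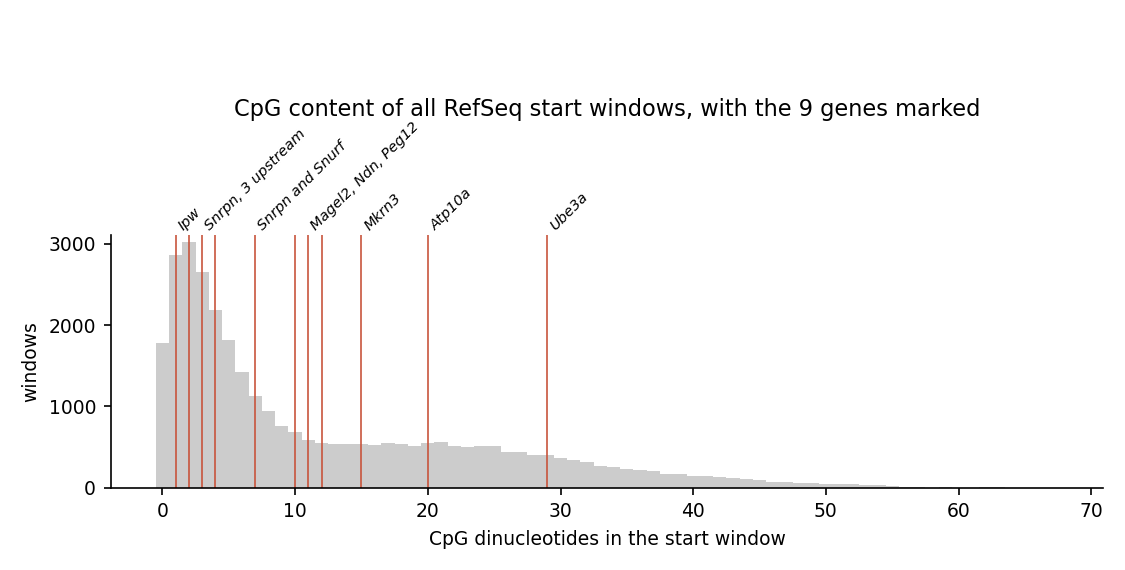
Number of CpG dinucleotides (x axis) in all 32817 RefSeq start windows of 300 bases (y axis, number of windows), with red lines at the windows of the 9 genes. Ipw and the 3 upstream Snrpn windows lie at 1 to 4 CpGs, the Snurf window at the median of 7, and Ube3a at 29.

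Ndn, a MAGE-family protein that restrains cell growth in neurons and other cells, was the highest of the 9 genes. Its single row (NM_010882, 7:69493164-69494814, plus strand) stood at 61.2 RPKM in WT1, 88.2 in WT2, 74.2 in KO1 and 86.0 in KO2, from 13363 to 25713 reads. KO1 was 1.21 times WT1 (95% counting interval 1.18 to 1.24) and KO2 was 0.975 times WT2 (0.957 to 0.994), so the 2 replicates pointed opposite ways and the genotypes overlapped. The fitted difference was 0.12 (SE 0.29, interval -0.66 to 0.90), with a limma adjusted p of 1.00. Counting error is small for Ndn, and the spread between libraries of 1 genotype, 61.2 against 88.2 in WT, exceeded either difference.

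Magel2, a MAGE protein that works in sorting of membrane cargo and lies 28.7 kb from Ndn, was nearly absent. It stood at 0.0227 RPKM in WT1, 0.0437 in WT2, 0.0263 in KO1 and 0.0362 in KO2, from 14, 36, 15 and 23 reads. The ratio of KO to WT was 1.16 (95% counting interval 0.520 to 2.59) in replicate 1 and 0.829 (0.469 to 1.44) in replicate 2. Both counting intervals include 1, and Magel2 stayed below the filter.

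Mkrn3, a zinc-finger protein of the makorin family known for restraining the onset of puberty, was higher in both KO libraries. It stood at 0.354 RPKM in WT1 and 0.511 in WT2, and at 0.599 in KO1 and 0.718 in KO2 (7:69562480-69565026, minus strand). The 4 values came from 119, 230, 187 and 249 reads, which gave ratios of 1.70 (95% counting interval 1.34 to 2.15) and 1.40 (1.17 to 1.69). Counting error alone thus did not cover either ratio, but the fitted difference was 0.32 (SE 0.35, interval -0.63 to 1.26), with a limma adjusted p of 1.00.

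Peg12, which encodes a relative of the Frat proteins that bind GSK3 in Wnt signalling, was the steadiest of the 9. Its row (7:69606758-69609397, minus strand) stood at 4.87 RPKM in WT1, 5.07 in WT2, 4.88 in KO1 and 4.45 in KO2, from 1698, 2362, 1577 and 1600 reads. The ratio of KO to WT was 1.00 in replicate 1 and 0.879 (95% counting interval 0.824 to 0.937) in replicate 2. The fitted difference was -0.083 (SE 0.25, interval -0.75 to 0.58), with a limma adjusted p of 1.00. That interval still allows a change of either sign.

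Ube3a, a ubiquitin ligase, and Atp10a, a phospholipid flippase, lie on the far side of the small nucleolar RNA clusters. The 3 rows of Ube3a summed to 7.95 RPKM in WT1, 4.25 in WT2, 7.29 in KO1 and 6.74 in KO2. WT2 was the low library, and the KO values lay between the 2 WT values. KO1 was 0.918 times WT1 and KO2 was 1.59 times WT2, and the fitted difference was 0.25 (SE 0.37, interval -0.74 to 1.23), with a limma adjusted p of 1.00. NM_001033962 held 81.2% to 85.9% of the sum in every library, NM_011668 held 0.767 to 1.19 RPKM, and NM_173010, which ends earlier, held at most 0.0430 RPKM. The make-up of Ube3a by row therefore stayed alike in the 4 libraries, with the first 2 rows sharing 1 span (7:66484123-66562098, plus strand).

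**Figure D3:**
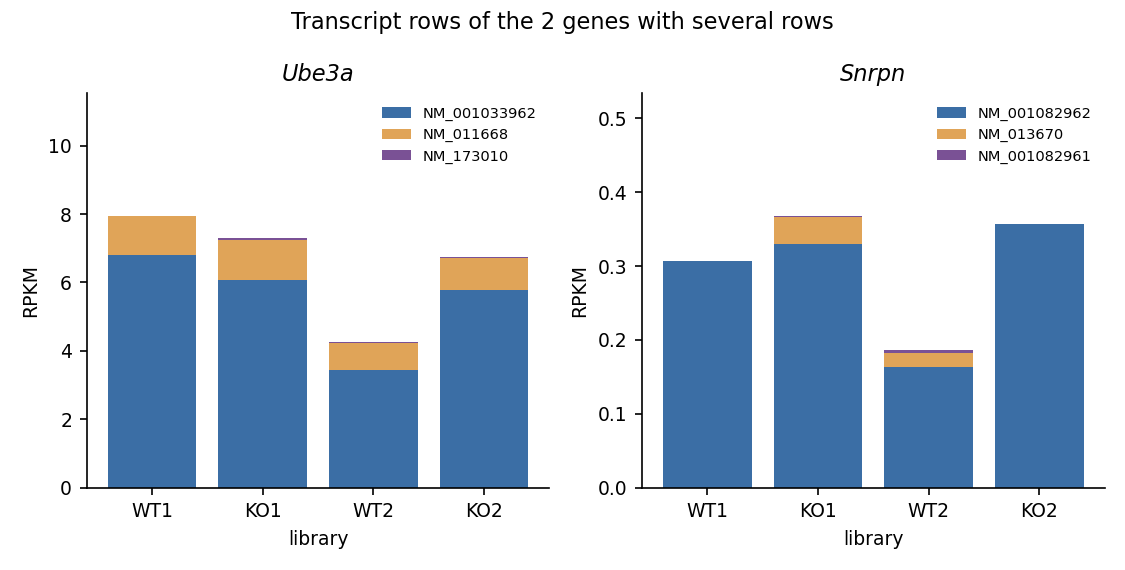
RPKM of each transcript row (y axis, stacked) of Ube3a and Snrpn in each library (x axis). For Ube3a, NM_001033962 makes up most of every bar and WT2 is the shortest. For Snrpn, most of each bar is the row that starts far upstream.

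Atp10a (7:65913573-66084797, plus strand) stood at 2.15 RPKM in WT1, 2.72 in WT2, 1.60 in KO1 and 2.89 in KO2. KO1 was the lowest and KO2 the highest library, so the genotypes overlapped fully. The fitted difference was -0.13 (SE 0.38, interval -1.16 to 0.90), with a limma adjusted p of 1.00.

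In order of mean RPKM, Ndn was followed by Ube3a, Peg12, Atp10a, Ipw, Mkrn3, Snrpn, Magel2 and Snurf. The ranges over the 4 libraries did not overlap between Ndn and Ube3a, between Peg12 and Atp10a, or between Snrpn and Magel2. They overlapped between Ube3a and Peg12, Atp10a and Ipw, Ipw and Mkrn3, Mkrn3 and Snrpn, and Magel2 and Snurf. The place of Ipw in this order comes from KO1 and KO2 alone.

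Both KO libraries lay above both WT libraries for 3 of the 9 genes, Ipw, Snrpn and Mkrn3, and for 2 of the 6 tested, where 6.1% of all tested genes did so. Ipw, 1 of the 2, passed the filter only through its KO libraries and so had to differ, and these shares are given as a description. KO was above WT within both replicate numbers for 2 of the 6, against 22.5% of all tested genes. Both KO libraries lay below both WT libraries for 0 of the 6 (7.32% of all tested), and KO was below WT within both numbers for 0 of the 6 (31.4%). The median difference of the 6 tested genes was 0.18 on the log2 scale, against -0.02 over all genes tested.

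**Figure D4:**
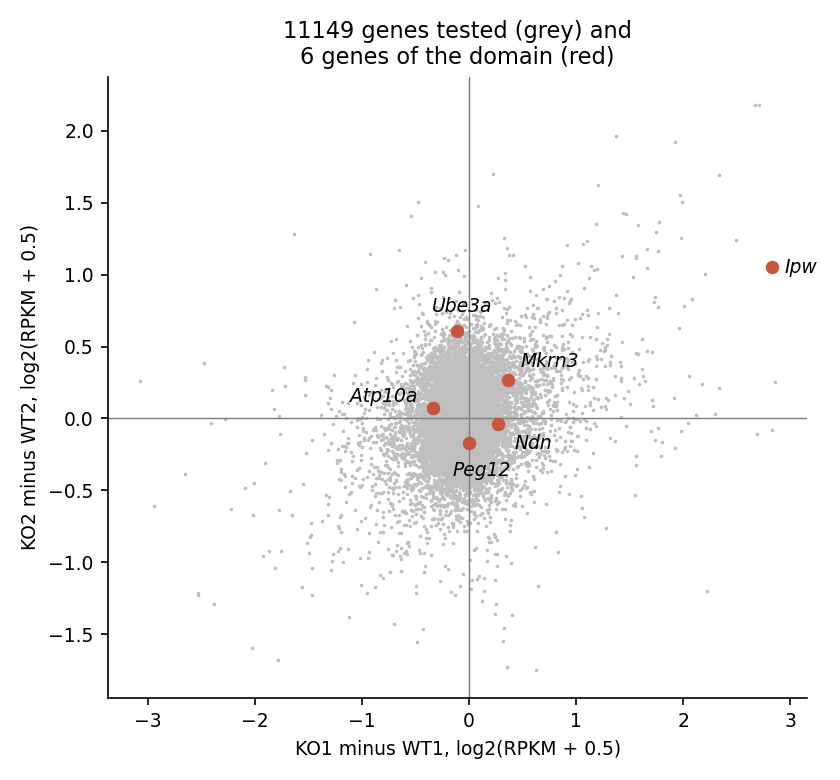
KO1 minus WT1 (x axis) against KO2 minus WT2 (y axis), both in log2(RPKM + 0.5), for the 11149 genes tested (grey) and the 6 tested genes of the domain (red). Ipw lies at 2.83 and 1.06, at the right edge of the cloud, and the other 5 lie within it.

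Along the map, no neighbour of Ipw had a difference of its size, and the contrast between them was not tested. The 9 genes span 7:65913573-69609397, 3.7 Mb with 59 transcript rows, of which 13 are theirs. D7Ertd715e, a noncoding transcript between Ipw and the Snurf start on the same strand, stood at 1.09 RPKM in WT1, 1.21 in WT2, 1.21 in KO1 and 1.58 in KO2, a difference of 0.19 (SE 0.33). A230073K19Rik, which lies inside the Ube3a span on the opposite strand, stood at 1.10 RPKM in WT1, 0.495 in WT2, 0.931 in KO1 and 0.932 in KO2, with the same low WT2 as Ube3a. The sources used here do not state that the libraries mark strand, so reads of these 2 overlapping transcripts cannot be told apart. C230091D08Rik, on the opposite strand with its 3′ end just past the end of Ube3a, stood between 3.43 and 4.83 RPKM with overlapping genotypes. Of the 13 other transcripts on the list used for the domain, 8 were present, 3 were tested and 0 passed, with a median difference of 0.18. Among the 8 present, A230056P14Rik (7:63217902-63235467) lies outside the span of the 9 genes and was not among those tested.

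Small RNA rows made up 41 of the 59, including 30 rows of the Snord116 family at 10 positions, 2 of them inside the Ipw span, and 10 Mir344 rows. All 41 were at 0 in WT1 and KO1 and have no row in the replicate 2 tables. The libraries were made from RNA selected for a poly-A tail, per the labels' protocols.

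**Figure D5:**
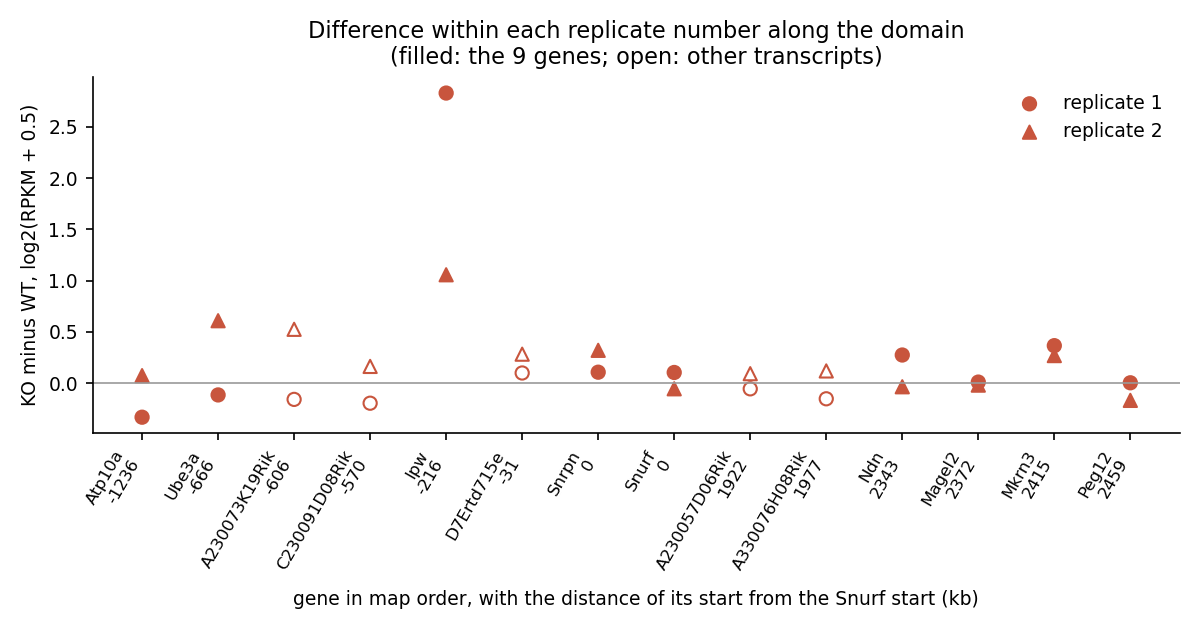
KO minus WT on the log2(RPKM + 0.5) scale (y axis) within replicate 1 (circles) and replicate 2 (triangles) for each gene in map order (x axis, with the distance of its start from the Snurf start in kb). Ipw stands at 2.83 and 1.06, and every other gene, with its rows summed, lies between -0.33 and 0.61.

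Beyond the imprinted genes, 23 of 25 listed flanking genes were present and 15 were tested, and 0 passed the limma test, with a median difference of 0.06. Ndnl2, a MAGE gene outside the domain, stood at 27.5 RPKM in WT1, 27.6 in WT2, 22.7 in KO1 and 29.1 in KO2. Klf13, a zinc-finger factor, and Nipa2, a magnesium transporter, likewise overlapped between genotypes. Chrna7, a subunit of the nicotinic acetylcholine receptor, was the tested flanking gene with both KO libraries above both WT libraries, at 0.409 RPKM in WT1, 0.200 in WT2, 0.847 in KO1 and 0.548 in KO2, a difference of 0.57 (SE 0.38, limma adjusted p of 1.00).

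Genes that keep or read the imprint were tested for 14 of 16 listed, and 0 passed. Zfp57, a zinc-finger protein that holds methylation at imprints, stood at 10.8 RPKM in WT1, 14.7 in WT2, 11.0 in KO1 and 13.47 in KO2. Its partner Trim28 stood at 21.6, 37.95, 17.9 and 30.6 RPKM in the same order, lower in KO within each number but with overlapping genotypes. Zfp445, another zinc-finger protein of imprints, stood at 7.14, 8.66, 7.48 and 10.5 RPKM, also overlapping. Of imprinted genes elsewhere in the genome, 18 of 22 paternally and 12 of 22 maternally expressed genes were tested and 0 passed, with medians of -0.08 in both lists. The highest of the maternal list were H19, a long noncoding RNA, Grb10, a signalling adaptor gene, and Cdkn1c, a cell cycle inhibitor gene. In each the ranges of the genotypes overlapped. H19, at 661 RPKM in WT1, 3604 in WT2, 105 in KO1 and 2756 in KO2, was lower in KO within each number. Grb10 was too, whereas Cdkn1c was higher in KO1 than in WT1 and lower in KO2 than in WT2. Nnat, an imprinted proteolipid gene, lay lower in both KO libraries, with 17.6 RPKM in WT1, 13.01 in WT2, 8.44 in KO1 and 6.40 in KO2. Its difference was -0.99 (SE 0.29, limma adjusted p of 1.00, or 0.0238 with the replicate number in the fit). Dlk1, a Notch-like membrane protein gene, stood at 7.10 RPKM in WT1, 132 in WT2, 3.29 in KO1 and 58.96 in KO2 (limma adjusted p of 1.00, or 0.0141 with the replicate number). Relatives of the domain's proteins, of which Ndnl2, the splicing protein gene Snrpb and the flippase gene Atp11a were the highest, were tested for 8 genes and 0 passed. Over these lists of neighbours, regulators, imprinted genes and relatives, an unadjusted limma p under 0.05 was given to 1 gene, Nnat.

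The genes whose 4 values lay nearest to those of Ipw, by Euclidean distance over the 4 libraries in log2(RPKM + 0.5), were Klra5 (0.93), Cyp2c55 (1.10), Mrgprx2 (1.14), Kcnf1 (1.16) and Pcdha10 (1.24). Klra5, a natural killer cell receptor gene on chromosome 6, was listed at 0 in WT1 and WT2 and stood at 1.47 RPKM in KO1 and 0.695 in KO2. Mrgprx2, a G protein-coupled receptor gene that also lies on chromosome 7 but outside the domain (7:55733990-55754641), stood at 0.0116 RPKM in WT1, was listed at 0 in WT2, and reached 2.76 RPKM in KO1 and 1.77 in KO2. By the smaller of the 2 within-number differences Mrgprx2 ranked 1 of the 11149 genes and Ipw ranked 25. Both genes passed the filter only through their KO libraries, so these ranks too are a description. Kcnf1, a potassium channel subunit gene, differed from the rest in that KO2, at 0.199 RPKM, lay below WT1, at 0.517. The 5 genes were chosen by this likeness, so it is no test.

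Markers of other cell types were summed beside these differences. The summed level of 11 present neuronal markers, of 15 listed, was 43.6 RPKM in WT1 and 44.0 in WT2 against 63.0 in KO1 and 57.7 in KO2, higher in both KO libraries. That difference was carried by Tubb3, a neuronal tubulin and the highest of them, at 18.5 RPKM in WT1, 14.7 in WT2, 41.4 in KO1 and 31.2 in KO2 (adjusted p 0.0125 with the replicate number in the limma fit, 1.00 without). The other 10 summed to 25.1 RPKM in WT1 and 29.3 in WT2 against 21.7 in KO1 and 26.4 in KO2, lower in KO within each number. Gap43, a growth cone protein gene, stood at 11.4 RPKM in WT1, 26.6 in WT2, 15.6 in KO1 and 23.0 in KO2. Stmn2, a neuronal stathmin gene, stood at 12.7, 0.973, 4.70 and 1.22 in that order. Together they made up most of the sum of the other 10, which therefore says little of the lower markers. Nefm, a neurofilament gene, was higher in both KO libraries, at 0.686 RPKM in WT1, 0.693 in WT2, 0.940 in KO1 and 1.11 in KO2. Nefl, another neurofilament gene, was higher in KO within each number. The markers Syt1 and Ina were higher in KO1 than in WT1 but lower in KO2 than in WT2. Elavl3 and Elavl4 were lower in KO1 than in WT1 but higher in KO2 than in WT2. Snap25 and Rbfox3, which mark mature neurons, were listed at 0 in WT1 and KO1 and stood at 0.0668 and 0.0113 RPKM in WT2 and 0.146 and 0.0133 in KO2, and none of the 11 was at 0 in every library. The sum of 11 present macrophage markers, of 12 listed, was 60.02 RPKM in WT1 and 175 in WT2 against 8.32 in KO1 and 84.3 in KO2, lower in KO within each number with ranges that overlap. The part of either in the Ipw values was not tested, and in bulk RNA fewer cells of a type and less RNA per cell cannot be told apart. Replicate 1 and replicate 2 also differ in the length of their tables, with 26886 and 21136 rows.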

How the data were processed

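RNA from 4 libraries of primary fibroblasts (2 WT, 2 KO) was analysed, grouped by the labels. Per the labels' protocols, RNA was ribosome-depleted and selected on poly-T beads. The deposited values are RPKM per RefSeq transcript, computed by the authors. The submitters' processing notes name mm9 and Partek, whereas a readme deposited beside the tables names Cufflinks. Which aligner was used, and how reads with several matches were treated, is not given in the sources used here. Starts in the files are counted from 0 and are given here from 1. Rows were summed per symbol and chromosome. Genes with 0.5 RPKM in at least 2 libraries were tested, two-sided, with limma 3.58.1 in R 4.3.3 (eBayes with trend and robust variance) on log2(RPKM + 0.5), genotype the only term, Benjamini-Hochberg adjusted over all genes. The fits with and without the replicate number were run on simulated data with known changes. Recovery of the changed genes was required only of the fit with the replicate number. Depth came from single-read steps in olfactory receptor genes (tolerance 0.02 of a read). Poisson intervals are 95% and cover counting error only. By the rule used, all 9 genes and their rows are named, and of each other gene list all present genes are counted and those that passed a fit, or otherwise the 3 highest, and the map neighbours named. Chrna7, Gap43, Stmn2, Nefm, Nefl, Syt1, Ina, Elavl3, Elavl4, Snap25, Rbfox3, Lum, Pdgfra and S100a4 were named after their values were seen, and A230056P14Rik for its position. The genes and lists were chosen with earlier results of these data known. Of the 13 rows, 12 matched the RefSeq table by accession. Start windows are from RefSeq for GRCm38.p6. Alternatives changed the pseudocount, filter, scaling, transcript choice, replicate term and libraries.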

Additional observations from a re-analysis of the deposited data

How the results depend on the processing

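None of the 6 tested genes of the domain passed a limma adjusted p of 0.05 under any alternative that could be fitted. The labels do not say that the replicate number pairs the samples. Over 11149 genes, deviations from the genotype means correlated at 0.875 between libraries of the same number. The tables of the 2 numbers also differ in length, with 26886 and 21136 rows. With the replicate block the count of called genes went from 0 to 75 (42 higher and 33 lower in KO), and 0 of the 6 were among them. The 75 included Tubb3, Nnat, Dlk1 and the macrophage genes C1qc, Cd14, Fcer1g and Laptm5. They also included 4 of the 5 genes nearest to Ipw. Those 4 were chosen by that likeness and passed the filter only through their KO libraries, so their calls are no test. With median-ratio scaling added the block called 90 (70 of them shared with the 75), and with pseudocount 0.1 it called 37 (35 shared). With the transcript of the highest mean in place of the sum it called 3 (3 shared), and with no filter 0. Over transcripts the block called 0, and 27 with median-ratio scaling. Leaving out 1 library called 0 to 0 genes. Under the block Ipw had an adjusted p of 0.577, and its range over all fits was 0.0975 (block with pseudocount 0.1, difference 3.73) to 1.00, while its difference ran from 1.33 with pseudocount 1 to 3.73 with pseudocount 0.1. Ipw could not be tested with a filter of 1 RPKM, with median-ratio scaling of summed rows, or without either KO library. Leaving out 1 library reversed the sign for Atp10a (-0.47 to 0.21), Ndn (-0.14 to 0.38), Ube3a (-0.17 to 0.66), and its rows NM_001033962 (-0.18 to 0.70) and NM_011668 (-0.066 to 0.30), in 7 of 30 such fits; the other 88 fits of single genes kept their direction and side. A lone library in such a fit is assumed to vary like the others. With 2 libraries per genotype, small differences of the low genes Magel2, Snrpn and Snurf cannot be resolved at this depth.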
